A study of Mus musculus with 28 samples.

Results

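The HOX genes and the limb identity factors Pitx1, Tbx4 and Tbx5 were followed through 28 RNA-seq libraries of transformed mouse embryonic fibroblasts (MEFs). Every row of the count table whose symbol was Hoxa, Hoxb, Hoxc or Hoxd followed by a number was taken, together with the 3 limb genes, which gave 42 of 24079 rows. They comprised 11 HOXA, 10 HOXB, 9 HOXC and 9 HOXD genes, which lie on chromosomes 6, 11, 15 and 2 of GRCm38, the assembly called mm10. Pitx1 lies on chromosome 13, Tbx4 on chromosome 11 and Tbx5 on chromosome 5.

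All libraries came from MEFs of C57BL/6x129Sv background carrying RAS and DNP53, seeded at 80% confluency, treated overnight and harvested the next morning. Clones 14 and 12 carried a tagged cyclin D1, labelled Ctag. Each gave 1 library with siRNA against the FLAG tag, 1 against the HA tag, 1 with each of 3 cyclin D1 siRNAs labelled Qiagen, Nature and Life, 1 with the control siRNA labelled SCR, 1 with leptomycin B, an inhibitor of nuclear export, at 20 ng/mL, and 1 untreated. Clones 25 and 18 had untagged cyclin D1, and each gave 1 library with FLAG, HA and SCR siRNA. Clone 18 carrying FLAG-mCherry-HA/PURO and clone 18 carrying mCherry/PURO gave 3 libraries each, 2 with HA siRNA and 1 with FLAG siRNA, and these 6 are called the mCherry lines below. Each line was 1 clone, so clone 14 against clone 12 or clone 25 against clone 18 compared single clones, and tagged against untagged compared 2 clones with 2 others. The libraries of clones 14, 12, 25 and 18 differed in treatment, with 1 library per clone and treatment. The titles of the mCherry lines carry REP1 or REP2, which the labels do not explain. Nothing in the labels says that libraries came from independent experiments. The p-values thus measured the spread between libraries, which may be technical. The sample titles also carry an n of 3 or 4, which could mean material pooled into 1 library, and the labels do not explain it.

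HOX proteins are homeodomain transcription factors encoded in clusters whose gene order runs parallel to the body axis. Genes at the 3′ end of a cluster (low numbers) are used early and towards the head, and genes at the 5′ end (high numbers) are used late, towards the tail and in distal limbs. Cultured fibroblasts are known to keep much of the HOX pattern of the site they came from. Tbx5 marks and drives the forelimb, and Pitx1 and its target Tbx4 mark the hindlimb. The sources used here do not give the embryonic site from which each clone came.

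RefSeq promoter windows of 300 bases, from 250 before to 50 after the start of a gene, were at hand on GRCm38.p6 for 23 of the 42 genes, in 25 windows. The 4 shown are the promoters the results below turn on, with CpG dinucleotides in capitals. Hoxd13 had reads in clone 14 alone, Hoxb8 was near 0 in clone 14 alone, and Hoxd9 and Hoxd8 are neighbours that were called with tag siRNA against SCR. All 4 genes lie on the plus strand.
Hoxd13 (chr2:74667975-74668274, +): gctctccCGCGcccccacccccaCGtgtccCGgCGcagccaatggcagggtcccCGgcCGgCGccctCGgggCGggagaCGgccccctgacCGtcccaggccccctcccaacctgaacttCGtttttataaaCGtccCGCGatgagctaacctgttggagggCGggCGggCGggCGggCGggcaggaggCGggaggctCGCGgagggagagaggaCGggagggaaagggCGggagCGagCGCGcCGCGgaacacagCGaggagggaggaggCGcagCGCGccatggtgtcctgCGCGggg
Hoxb8 (chr11:96281655-96281954, +): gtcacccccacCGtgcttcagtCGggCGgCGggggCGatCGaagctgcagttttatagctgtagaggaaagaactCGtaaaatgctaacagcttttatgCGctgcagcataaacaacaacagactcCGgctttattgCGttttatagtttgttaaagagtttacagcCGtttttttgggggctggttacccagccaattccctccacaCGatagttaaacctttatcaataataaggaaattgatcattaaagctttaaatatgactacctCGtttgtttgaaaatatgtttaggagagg
Hoxd9 (chr2:74697513-74697812, +): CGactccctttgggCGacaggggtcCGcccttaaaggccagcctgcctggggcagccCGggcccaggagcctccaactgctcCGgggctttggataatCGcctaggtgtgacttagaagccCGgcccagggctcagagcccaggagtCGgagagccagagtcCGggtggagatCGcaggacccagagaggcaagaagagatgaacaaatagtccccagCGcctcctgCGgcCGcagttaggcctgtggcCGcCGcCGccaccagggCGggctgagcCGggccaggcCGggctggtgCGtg
Hoxd8 (chr2:74704365-74704664, +): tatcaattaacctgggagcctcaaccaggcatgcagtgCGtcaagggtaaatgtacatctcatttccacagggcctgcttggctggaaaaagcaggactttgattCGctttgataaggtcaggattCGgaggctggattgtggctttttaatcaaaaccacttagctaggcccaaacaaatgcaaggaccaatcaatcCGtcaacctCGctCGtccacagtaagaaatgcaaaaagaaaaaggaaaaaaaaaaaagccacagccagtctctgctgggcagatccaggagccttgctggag
The Hoxd13 window held 37 CpG, the Hoxd9 window 20, the Hoxb8 window 13 and the Hoxd8 window 6. The 25 windows of these genes had a median of 14 CpG (range 4 to 45), against a median of 7 over all 32851 RefSeq windows. The letters TATAAA, searched on both strands, occurred in 5 of the 25 windows (20%) and in 13.6% of all windows. Hoxd13 had 2 such matches, which overlap each other on opposite strands, and Hoxb8 had 2, while the Hoxd9 and Hoxd8 windows had 0. The letters TGATNNAT, a spelling of the joint PBX and HOX motif, occurred in 4 of the 25 windows (16%) and in 8.85% of all, and of the windows shown Hoxb8 alone held a match. These matches describe the letters and say nothing of binding.

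Library totals ran from 26558256 to 81512769 counts. Levels are given in CPM, the usual scaling of counts to library size. Ccnd1, the cyclin D1 gene, followed the labels: it ran from 50.1 to 329 CPM (median 156 CPM, n = 10) in tagged clones with a targeting siRNA, against 1128 and 1287 CPM with SCR, and stood at 1014 to 1293 CPM with FLAG or HA siRNA in untagged clones (n = 4), against 1313 and 1329 CPM with SCR. Markers fixed for fibroblasts or mesenchyme averaged at least 1 CPM for 11 of 11 genes in clones 12, 25 and 18 and the mCherry lines, and for 9 of 11 in clone 14. Some defining fibroblast genes were low or nearly absent in clone 14, and others were not. Col1a1, a type I collagen chain, had a median of 0.471 CPM in clone 14, against 570 CPM in clone 12, and the surface marker Thy1 had 3 counts in all 8 clone 14 libraries, against a median of 26.6 CPM in clone 12. The mesenchymal filament gene Vim stayed at 4202 to 7919 CPM in clone 14. Against clone 12, S100a4 and Vim were higher in clone 14 (log2 fold changes 0.62 and 0.35). Twist1, Prrx1 and Col3a1 were lower (−0.41, −0.86 and −1.18). Fn1, Pdgfrb, Pdgfra and Col1a2 were lower by more (−2.85, −4.41, −4.67 and −11.1). Epithelial markers summed to 970 to 1958 CPM in clone 14, against 87.4 to 229 CPM in clone 12, nearly all of it Krt18. The sum was 608 to 1135 CPM in clone 18, 710 to 1174 CPM in the mCherry lines and 371 to 614 CPM in clone 25. Cdh1 had a median of 30.9 CPM in clone 14, against 0.764 CPM in clone 12. Krt8 was also higher in clone 14 than in clone 12 (log2 fold change 4.39), but Epcam was lower (−1.98, edgeR adjusted p = 0.0128). The part of these markers in the HOX differences between the clones was not tested. In bulk RNA, fewer cells expressing a gene and less RNA per cell cannot be told apart.

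Of the 42 genes, 9 had at least 10 counts in each of the 28 libraries. Among them were Hoxa5, Hoxa7, Hoxa9, Hoxd8 and Hoxd9. Hoxc12 and Tbx4 had 0 counts in all 28 libraries, which allows at most 0.00249 CPM over the pooled counts of all libraries (counting error only). Counted line by line, 16 genes had at least 10 counts in every library of clone 14, 25 in clone 12, 32 in the mCherry lines, 29 in clone 25 and 32 in clone 18. The lines differed most in which clusters these came from. Clone 14 had 9 HOXA and 6 HOXD genes at that level but 0 HOXB and 0 HOXC genes, while clone 12 had 7 HOXA, 8 HOXB, 6 HOXC and 4 HOXD genes.

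**Figure D1:**
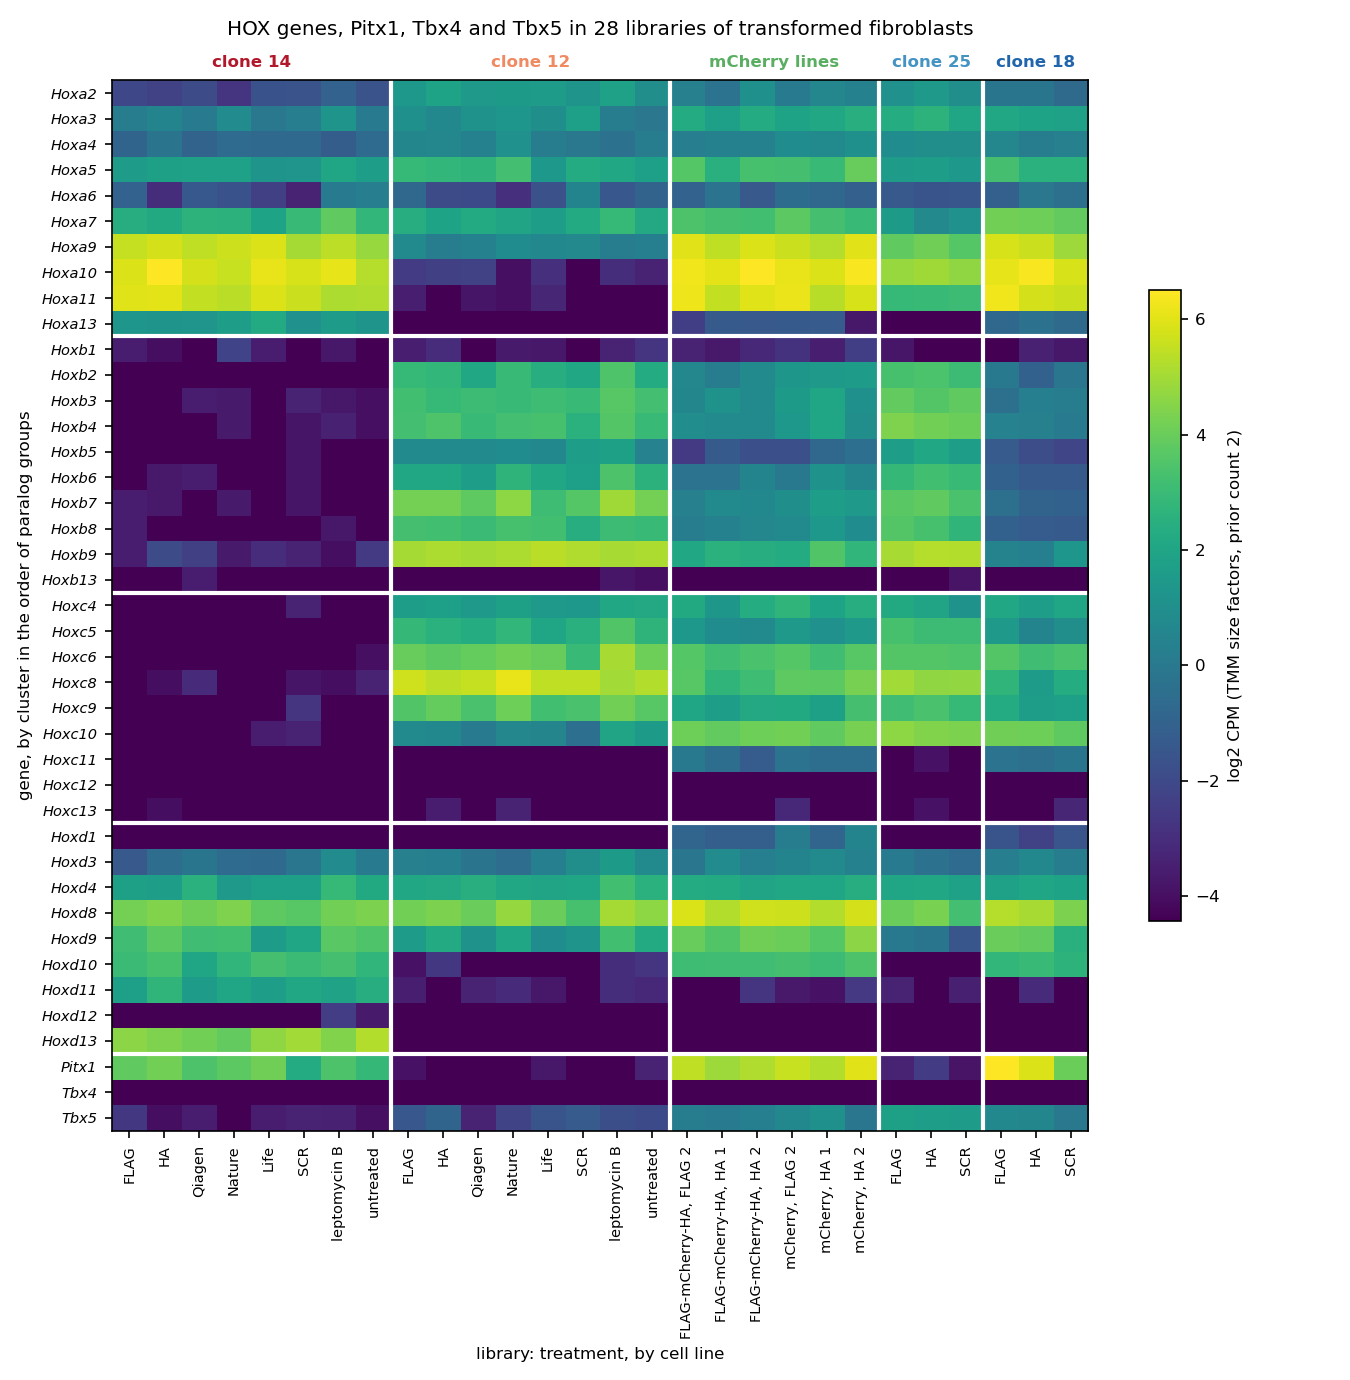
Each row is a gene, grouped as HOXA, HOXB, HOXC, HOXD and limb genes, and each column is 1 of the 28 libraries, grouped by line, with colour giving log2 CPM (prior count 2). The HOXB and HOXC blocks are at or near the bottom of the scale in the 8 clone 14 libraries, Hoxd13 is filled in those 8 alone, and libraries of 1 line look alike whatever the treatment.

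Summed over the 39 HOX genes, the lines differed less than their clusters did. The HOX total had a median of 235 CPM in clone 14 (207 to 303), 228 CPM in clone 12 (187 to 300), 390 CPM in the mCherry lines (301 to 434), 297 CPM in clone 25 (258 to 300) and 331 CPM in clone 18 (251 to 367). In clone 14, HOXA made up a median of 73.0% of the HOX counts and HOXD 26.9%, with 0.0819% from HOXB and 0.0123% from HOXC. In clone 12 the order was turned, with 9.49% HOXA, 40.9% HOXB, 37.4% HOXC and 12.3% HOXD. The mCherry lines had 59.7% HOXA and 4.66% HOXB, clone 25 had 24.3% HOXA and 38.8% HOXB, and clone 18 had 66.8% HOXA and 1.71% HOXB. By cluster shares, clones 14 and 18 were thus HOXA-rich, and clones 12 and 25 HOXB- and HOXC-rich, a division that cuts across the cyclin D1 tag.

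**Figure D2:**
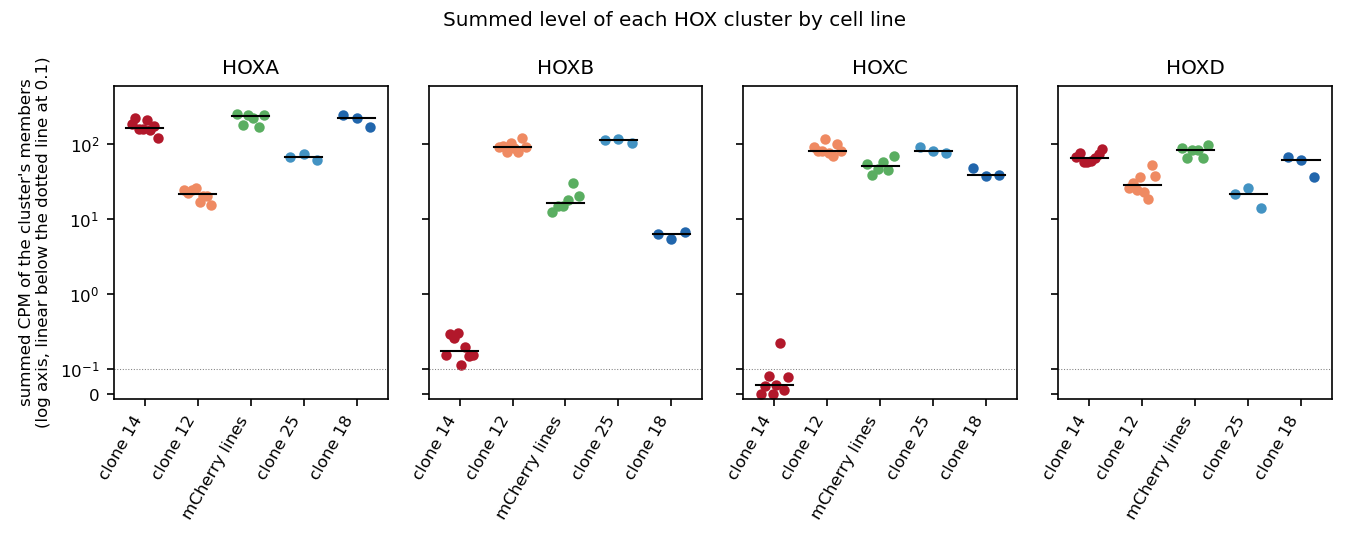
Summed CPM of each HOX cluster on the y axis (log scale, linear below 0.1) in clone 14, clone 12, the mCherry lines, clone 25 and clone 18, with 1 point per library and a black line at the median. Clone 14 stands at a median of 0.176 CPM for HOXB and 0.0347 CPM for HOXC, against 92.3 and 81.4 CPM in clone 12.

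Clone 14 carried the most 5′ program. The most 5′ gene with at least 10 counts in every clone 14 library was Hoxa13 in HOXA and Hoxd13 in HOXD, both genes of the distal limb and the hind end of the trunk. Hoxd13 ran from 14.6 to 38.1 CPM in the 8 clone 14 libraries (median 23.0 CPM) and had 0 counts in the other 20 libraries. Its neighbour Hoxd12 had 11 counts in clone 14, all with leptomycin B or no treatment, and 0 elsewhere, while Hoxd11 ran from 3.04 to 6.49 CPM in clone 14 and stayed at or below 0.115 CPM in every other library. Per kilobase of exon, the highest genes in clone 14 were Hoxa11 (20.8 CPM per kb), Hoxa10 (19.0), Hoxa9 (14.0) and Hoxd13 (9.28). Pitx1 had 4.82 to 17.9 CPM (median 12.2 CPM) in clone 14 and Tbx5 at most 0.114 CPM.

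Clone 12 stopped short of the 5′ end in HOXA and HOXD. Its most 5′ genes with at least 10 counts in every library were Hoxa9, Hoxb9, Hoxc10 and Hoxd9. Hoxa10 reached at most 0.154 CPM and Hoxa13 had 0 counts in the 8 clone 12 libraries. The trunk genes of HOXB and HOXC filled the pattern instead, and per kilobase the highest were Hoxc8 (23.5 CPM per kb), Hoxb7 (14.3) and Hoxb9 (13.8). Neither limb marker was high, since Pitx1 reached 0.0487 CPM and Tbx5 0.483 CPM at most.

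Clone 25 resembled clone 12 in HOXB and HOXC but had Hoxa10 and Hoxa11. Hoxa10 stood at 25.4, 28.4 and 31.0 CPM in its 3 libraries and Hoxa11 at 7.47, 7.83 and 8.23 CPM, while Hoxa13 and Hoxd10 had 0 counts. Per kilobase the highest were Hoxb9 (14.9 CPM per kb), Hoxc8 (14.2) and Hoxc10 (11.4). Tbx5 was at its highest here, at 2.94, 3.24 and 3.42 CPM, with Pitx1 between 0.0221 and 0.130 CPM. Clone 25 was the line with the forelimb marker present and the hindlimb marker nearly absent.

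Clone 18 and the mCherry lines made from it shared a pattern of high HOXA, middle HOXC and low HOXB. In clone 18 the most 5′ genes with at least 10 counts in every library were Hoxa13, Hoxb9, Hoxc11 and Hoxd10, and Hoxa13 itself was low, at 0.553, 0.592 and 0.748 CPM. Per kilobase, Pitx1 was the highest of all the genes in clone 18 (25.2 CPM per kb), followed by Hoxa11 (24.6) and Hoxa10 (21.8). Tbx5 was present beside it, at 0.918, 1.47 and 1.55 CPM in clone 18 and 0.866 to 2.02 CPM in the mCherry lines. Hoxc11 had reads in each clone 18 and mCherry library (0.376 to 0.962 CPM) and a single count in the other 19 libraries. Hoxd1 likewise ran from 0.164 to 1.36 CPM in these 9 libraries and had 0 counts in clones 14, 12 and 25.

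As a description over the 42 genes, the line medians on the log2(CPM + 1) scale had a Pearson r of 0.974 between the mCherry lines and clone 18, 0.765 between clones 12 and 25, 0.720 between clones 14 and 18, and −0.222 between clones 14 and 12. Spearman's rho for the same pairs was 0.964, 0.806, 0.531 and −0.0463. The genes of a cluster share regulation and are not independent points.

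The first test asked which of these genes differed between clone 14 and clone 12 (SCR, FLAG, HA, Qiagen, Nature, Life, leptomycin B and untreated libraries, 8 each). The 5′ genes Hoxa7 to Hoxa13 and Hoxd9 to Hoxd13 that were tested, with Pitx1, were higher in clone 14, and each tested HOXB and HOXC gene other than Hoxc11 was lower. Of the 36 genes that passed the filter on low counts, 31 were called by edgeR's quasi-likelihood test at an adjusted p under 0.05, 10 higher and 21 lower. Over all 15099 genes tested, 62.6% were called, 29.2% higher and 33.4% lower, so differences were common everywhere. The median log2 fold change was −0.91 for the 36 genes and −0.05 for all genes.

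Hoxa11, a gene of the middle limb segment, ran from 36.1 to 65.6 CPM (median 47.7 CPM) in clone 14, against 0 to 0.0574 CPM (median 0.00867 CPM) in clone 12, and its log2 fold change was 11.37 (SE 0.21, edgeR adjusted p = 2.50e-18). Hoxa10 ran from 38.5 to 90.8 CPM in clone 14, against 0 to 0.154 CPM in clone 12 (log2 fold change 9.68, SE 0.19, edgeR adjusted p = 7.28e-18). Hoxa9 was high in clone 14, at 27.8 to 61.5 CPM, and low but present in clone 12, at 1.09 to 1.82 CPM (log2 fold change 4.94, SE 0.13, edgeR adjusted p = 3.35e-16). None of these ranges overlapped. Pitx1 had a log2 fold change of 9.43 (SE 0.26, edgeR adjusted p = 5.05e-16). In any clone 12 library Hoxa11 had at most 2 counts and Pitx1 at most 3. For genes this near 0 in 1 clone, here and below, the SE can understate the error of the fold. Hoxd13, with 0 counts in clone 12, was at least 3213-fold higher in clone 14, and Hoxa13 at least 344-fold higher, taking the floor as 3 counts over the 8 clone 12 libraries.

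The reverse held for the trunk genes. Hoxc6, a thoracic and forelimb-level gene, had 1 count in the 8 clone 14 libraries, against 7.55 to 33.2 CPM in clone 12, a ratio 5501-fold lower in clone 14 (95% counting interval 987 to 217301; edgeR adjusted p = 5.12e-18). Hoxc8 ran from 0 to 0.0733 CPM in clone 14, against 31.2 to 69.6 CPM in clone 12 (log2 fold change −10.67, SE 0.25, edgeR adjusted p = 6.37e-17). Hoxb7 ran from 0 to 0.0381 CPM in clone 14, against 8.63 to 30.9 CPM in clone 12 (log2 fold change −10.09, SE 0.25, edgeR adjusted p = 1.19e-16). Hoxb9 was at most 0.220 CPM in clone 14, against 32.3 to 41.8 CPM in clone 12 (log2 fold change −8.54, SE 0.24, edgeR adjusted p = 6.16e-16). Hoxb8, whose promoter is printed above, had at most 0.0381 CPM in clone 14, against 5.10 to 9.90 CPM in clone 12, a ratio 925-fold lower in clone 14 (95% counting interval 316 to 4490). Hoxb2 and Hoxc5 had 0 counts in clone 14 and were at least 710-fold and 746-fold lower there. Tbx5, at most 0.114 CPM in clone 14, against 0.0512 to 0.483 CPM in clone 12, had a log2 fold change of −2.80 (SE 0.41, edgeR adjusted p = 9.51e-06).

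The 3′ genes of HOXA and HOXD differed less. Hoxa2, Hoxa4, Hoxa5, Hoxd3 and Hoxd4 were called lower in clone 14, with log2 fold changes from −3.51 (Hoxa2) to −0.32 (Hoxd4). Hoxd8 was not called between clone 14 and clone 12 (log2 fold change −0.14, SE 0.11, edgeR adjusted p = 0.242), at 12.7 to 21.7 CPM in clone 14, against 10.1 to 32.2 CPM in clone 12. Hoxa3 and Hoxa6 were not called either, with log2 fold changes of −0.50 (SE 0.23) and 0.01 (SE 0.52). Hoxc11 and Hoxd1 had 0 counts in both clones.

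**Figure D3:**
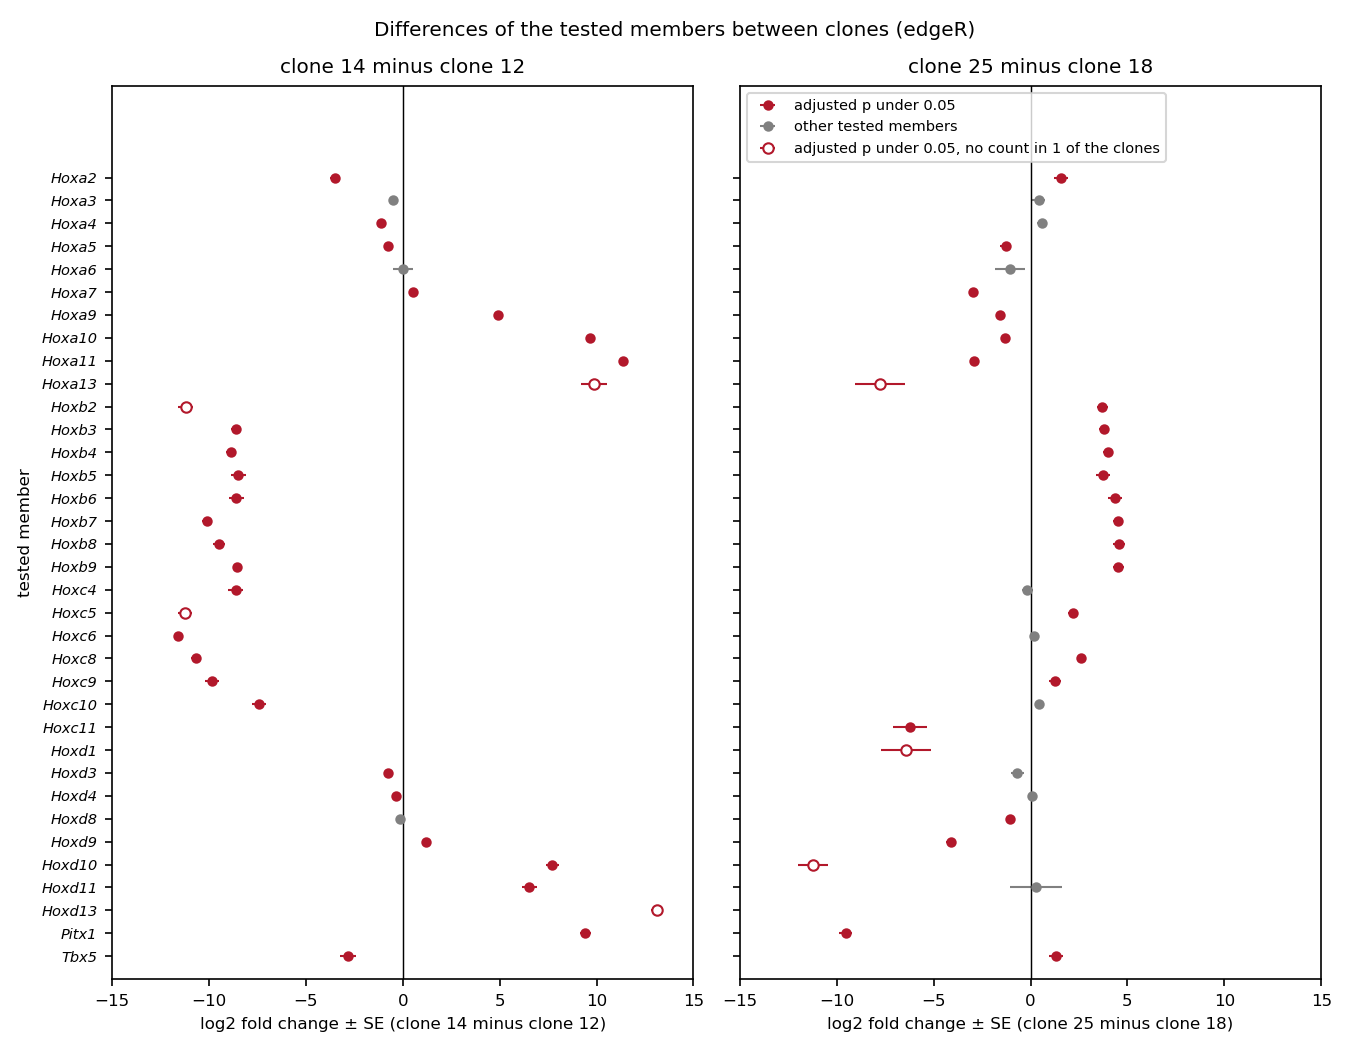
Log2 fold change with its SE (x axis) for tested genes, in cluster order, for clone 14 minus clone 12 and for clone 25 minus clone 18, with called genes in red, others in grey, and open symbols where 1 clone had no count. In clone 14 minus clone 12 the HOXB and HOXC genes lie left of 0 and Hoxa9 to Hoxa13 right of it, and in clone 25 minus clone 18 HOXB lies right of 0 and Hoxa7 to Hoxa13 left of it. For genes near 0 counts in 1 clone the SE can understate the error of the fold.

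Between the untagged clones 25 and 18, 25 of the 36 genes were called, 13 higher and 12 lower in clone 25, and 47.6% of all genes were called (22.9% higher, 24.6% lower). Each of the 8 tested HOXB genes was higher in clone 25. Hoxb7 had 10.3, 12.9 and 14.1 CPM in clone 25, against 0.444, 0.468 and 0.711 CPM in clone 18 (log2 fold change 4.53, SE 0.25, edgeR adjusted p = 1.14e-10). Hoxb9 had 34.0, 38.4 and 38.8 CPM in clone 25, against 1.19, 1.34 and 2.43 CPM in clone 18 (log2 fold change 4.53, SE 0.28, edgeR adjusted p = 3.29e-10). Hoxb8 had a log2 fold change of 4.57 (SE 0.29, edgeR adjusted p = 6.87e-10), and Hoxb4 one of 3.98 (SE 0.26, edgeR adjusted p = 7.33e-10). For each of these genes every clone 25 library was above every clone 18 library.

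Pitx1, the hindlimb gene, was far lower in clone 25. It had 0.0221, 0.0526 and 0.130 CPM in clone 25, against 16.6, 61.7 and 90.7 CPM in clone 18 (log2 fold change −9.54, SE 0.35, edgeR adjusted p = 4.37e-13). Hoxa11 had 7.47 to 8.23 CPM in clone 25, against 49.8 to 76.8 CPM in clone 18 (log2 fold change −2.93, SE 0.17, edgeR adjusted p = 1.78e-10). Hoxd9 had 0.310 to 0.947 CPM in clone 25, against 5.69 to 15.9 CPM in clone 18 (log2 fold change −4.12, SE 0.26, edgeR adjusted p = 4.90e-10). Hoxa7 was also lower in clone 25 (log2 fold change −2.95, SE 0.20, edgeR adjusted p = 1.79e-09). Hoxd10, Hoxa13 and Hoxd1 had 0 counts in clone 25, and against a floor of 3 counts over its 3 libraries they were at least 272-fold, 25.0-fold and 9.58-fold lower there. Tbx5 went the other way, with a log2 fold change of 1.31 (SE 0.36, edgeR adjusted p = 0.00641). The HOXC genes Hoxc4, Hoxc6 and Hoxc10 were not called, with log2 fold changes of −0.16 (SE 0.29), 0.18 (SE 0.15) and 0.46 (SE 0.22).

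Set against the 2 untagged clones, the 2 tagged clones had 27 of the 36 genes called, 2 higher and 25 lower, with 46.3% of all genes called (20.5% higher, 25.8% lower). Tag and clone cannot be told apart here, because each tagged value averages clone 14 and clone 12, which themselves differed in 31 of the 36 genes. Hoxc6 gave a log2 fold change of −5.72 (SE 0.20, edgeR adjusted p = 2.06e-13) through clone 14. With SCR, FLAG and HA siRNA, clone 12 had 7.55, 15.4 and 13.6 CPM, on both sides of the 8.79 to 12.0 CPM of the untagged clones. Hoxc10 (log2 fold change −7.62, SE 0.28, edgeR adjusted p = 2.38e-13) was low in both tagged clones, at no more than 3.87 CPM, against at least 13.8 CPM in the untagged clones. With clone 14 at or near 0 counts, the size of both values depends on the prior count and is no bound. Without the clone as a block 2 genes were called, and the value of Hoxc8 turned to 0.48. The SE within clones therefore does not describe the spread between clones.

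A test for any difference among the 4 clones called 34 of the 36 genes (82% of all genes tested), with Hoxa6 and Hoxd4 the ones not called. Over the 12 libraries with SCR, FLAG or HA siRNA, the clone took a median of 98.2% of the variance in log2 CPM for these genes, and treatment 0.326%. For all genes the medians were 76.3% and 8.07%. Of the 36 genes, 27 had over 90% of their variance between clones, a share of 75%, against 26.3% of all genes. Hoxd8 had the least, 50.4% between clones and 47.0% between treatments, and Hoxd9 had 86.1% and 12.2%.

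The mCherry lines were made from clone 18, and the genes called between them and clone 18 were HOXB genes and Hoxc8. Summed HOXB ran from 12.3 to 30.9 CPM in the mCherry lines, against 5.50 to 6.72 CPM in clone 18. The test set these lines against clone 18 with FLAG and HA siRNA. The clone 18 SCR library is in the ranges below but was not set against them, and entered the fit through the clone block. Of the 36 genes, 5 were called, all higher in the mCherry lines (Hoxb3, Hoxb7, Hoxb8, Hoxb9 and Hoxc8), against 0.444% of all genes called and 0.265% called higher. Hoxb9 had 4.23, 5.23 and 5.80 CPM in FLAG-mCherry-HA libraries and 4.89, 6.76 and 11.7 CPM in mCherry libraries, against 1.19, 1.34 and 2.43 CPM in clone 18 (log2 fold change 1.96, SE 0.27, edgeR adjusted p = 0.00192). Hoxb7 had 1.23 to 3.14 CPM in the 6 mCherry line libraries (median 1.82), against 0.444 to 0.711 CPM in clone 18 (log2 fold change 1.65, SE 0.25, edgeR adjusted p = 0.00546). Hoxb8 had 1.08 to 2.61 CPM in the mCherry lines (median 1.61), against 0.355 to 0.447 CPM in clone 18 (log2 fold change 1.81, SE 0.29, edgeR adjusted p = 0.00688). For Hoxb7, Hoxb8 and Hoxb9 the ranges did not overlap. Nor did those of Hoxb3, or of Hoxb2, Hoxb4 and Hoxb6, which were not called but were also higher in the mCherry lines.

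Hoxc8 had 6.62 to 19.3 CPM in the mCherry lines, against 2.90, 5.04 and 6.63 CPM in clone 18, so that the lowest mCherry line library just overlapped (log2 fold change 1.39, SE 0.22, edgeR adjusted p = 0.00546). Hoxb3 had a log2 fold change of 1.19 (SE 0.26, edgeR adjusted p = 0.0475) and lost its call under DESeq2 (adjusted p = 0.124) and without any 1 of 5 of the 6 mCherry line libraries (edgeR adjusted p 0.0794 to 0.261), the exception being the second mCherry HA library. All 5 calls rest on both clone 18 libraries of the comparison, those with FLAG and HA siRNA. Without the clone 18 FLAG library 0 were called (edgeR adjusted p 0.0956 to 0.881), and without the clone 18 HA library 0 were called (0.0590 to 0.0939). Pitx1 was not called between the mCherry lines and clone 18 (log2 fold change −0.79, SE 0.18, edgeR adjusted p = 0.0718), nor was Tbx5 (−0.17, SE 0.34, edgeR adjusted p = 0.948). Between FLAG-mCherry-HA and mCherry lines, edgeR called 0 of the 36 genes and 0% of all genes. DESeq2 called 0 of the 36 as well. In edgeR 10 of the 36 (27.8%) had an unadjusted p under 0.05, against 9.21% of all genes.

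**Figure D4:**
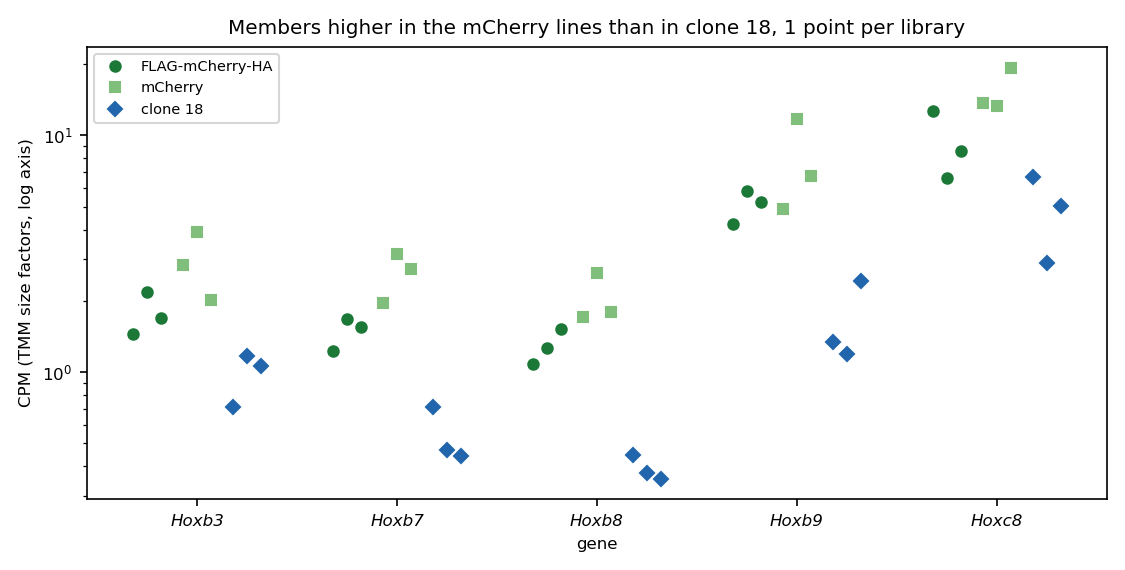
CPM (y axis) of Hoxb3, Hoxb7, Hoxb8, Hoxb9 and Hoxc8 in the 3 FLAG-mCherry-HA, 3 mCherry and 3 clone 18 libraries, 1 point per library. Hoxb9 stands at 4.23 CPM or more in the 6 mCherry line libraries and at 2.43 CPM or less in clone 18. The 2.43 CPM is the clone 18 SCR library, which the test did not set against the mCherry lines.

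Lists of other patterning genes were read against the share of all genes called between the same clones. Of 43 genes of limb bud and body axis signalling, 34 passed the filter. Between clone 14 and clone 12, 22 (64.7%) were called, 7 higher and 15 lower, near the 62.6% of all genes. Tbx3, a T-box factor of the limb margins, had a median of 0 CPM in clone 14, against 8.00 CPM in clone 12. Fgf10, the limb bud outgrowth ligand, had a median of 2.37 CPM in clone 14, against 56.9 CPM in clone 12, and Grem1, a BMP antagonist of the limb bud, 5.06 CPM in clone 14, against 144 CPM in clone 12. Between clones 25 and 18, 22 of the 34 (64.7%) were called, 6 higher and 16 lower, against 47.6% of all genes, among them Bmp2 (log2 fold change −7.25) and Hand2, a factor of the posterior limb bud (−8.17).

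The partners of HOX proteins were expressed in each clone but in different members. All 9 cofactor genes of the PBX, MEIS and PKNOX families were tested. Between clone 14 and clone 12, 7 (77.8%) were called, 3 higher and 4 lower, against 62.6% of all genes. Meis1, which marks the proximal limb, had a median of 1.37 CPM in clone 14, against 22.0 CPM in clone 12, and Meis3 had 7.93 CPM in clone 14, against 0 CPM in clone 12. Between clones 25 and 18, 5 (55.6%) were called, against 47.6% of all genes, with 4 higher and 1 lower. The lower one was Pknox2 (log2 fold change −5.14). With 9 genes tested, each gene weighs heavily in these shares. Of 15 caudal or anterior patterning factors 11 were tested. Between clone 14 and clone 12, 10 (90.9%) were called, 3 higher and 7 lower, against 62.6% of all genes. Cdx2, a caudal activator of HOX genes, had a median of 86.0 CPM in clone 14, against 0 CPM in clone 12 (log2 fold change 11.62, edgeR adjusted p = 1.15e-15). Pax3, a factor of the dorsal neural tube and limb muscle precursors, had a median of 29.0 CPM in clone 25, against 0.0592 CPM in clone 18.

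Noncoding transcripts from within the HOX clusters differed in both directions. Of 14 noncoding HOX cluster genes counted here, 7 were tested. Between clone 14 and clone 12, 6 (85.7%) were called, 4 higher and 2 lower, against 62.6% of all genes. Higher in clone 14 were Hottip (log2 fold change 5.73), Hoxa11os (11.52), 6720416L17Rik (4.68) and Mira (0.78), and lower were Hoxd3os1 (−2.04) and Mir196a-1, while Gm15055 was not called. Between clones 25 and 18, 4 (57.1%) were called, against 47.6% of all genes, with Hottip, Hoxd3os1 and Gm15055 not called. With 7 genes tested, each gene weighs heavily in these shares. Hoxa11os, which is antisense to Hoxa11, had a median of 37.1 CPM in clone 14, against 0 CPM in clone 12. The Mir196a-1 row, a microRNA gene between Hoxb9 and Hoxb13, was lower in clone 14 (log2 fold change −7.02) and higher in clone 25 than in clone 18 (4.54). It had 21 to 65 counts per library in clone 12 and 26 to 46 in clone 25, and at most 2 in clones 14 and 18. Its mature product is known in mouse to act on the Hoxb8 transcript. With the seed (bases 2 to 8) in capitals, the RefSeq sequence at chr11:96265187-96265208 on the plus strand follows.
miR-196a-5p: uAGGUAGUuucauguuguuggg
Poly(A) libraries read the longer transcript at this place and do not measure the mature microRNA. Of 32 Polycomb and trithorax regulators, the chromatin machinery that holds HOX clusters silent or active, all were tested, and 19 (59.4%) were called between clone 14 and clone 12, 4 higher and 15 lower, near the 62.6% of all genes. Examples are Phf19 (−0.93), Ezh1 (0.79), Cbx7 (0.86) and Cbx2 (−0.62). Between clones 25 and 18, 16 (50%) were called, 5 higher and 11 lower, near the 47.6% of all genes.

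Treatment moved far fewer of these genes than clone did. Against SCR, the tag siRNAs FLAG and HA in the tagged clones raised 4 of the 36 genes and lowered 0, with 3.86% of all genes called, 2.03% higher and 1.83% lower. Pitx1 had 14.1 CPM with FLAG siRNA and 17.9 CPM with HA siRNA in clone 14, against 4.82 CPM with SCR, and was at or near 0 in clone 12 (log2 fold change 1.73, SE 0.32, edgeR adjusted p = 0.00366). Hoxd9 had 8.88 and 13.3 CPM in clone 14 with FLAG and HA siRNA, against 4.10 CPM with SCR, and 2.92 and 4.80 CPM in clone 12, against 2.33 CPM with SCR (log2 fold change 1.05, SE 0.24, edgeR adjusted p = 0.0157). Hoxd8 had 18.9 and 21.7 CPM in clone 14 with FLAG and HA siRNA, against 12.7 CPM with SCR, and 18.0 and 20.3 CPM in clone 12, against 10.1 CPM with SCR (log2 fold change 0.79, SE 0.19, edgeR adjusted p = 0.0227). Both neighbours thus stood above SCR in all 4 libraries, although the libraries of a clone share its 1 SCR library and are not independent here.

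Hoxc6 rested on clone 12, where it had 15.4 and 13.6 CPM with FLAG and HA siRNA, against 7.55 CPM with SCR (log2 fold change 0.93, SE 0.23, edgeR adjusted p = 0.0302). Each of the 4 calls hung on single libraries. Pitx1 was not called without the clone 14 SCR, FLAG or HA library (edgeR adjusted p 0.351, 0.435 and 0.922, with log2 fold changes of 3.08, 1.86 and 0.10) or under DESeq2 (adjusted p = 0.159), and Hoxc6 not without the clone 12 SCR, FLAG or HA library (0.977, 0.974 and 0.919, with log2 fold changes of 0.65, 0.53 and 0.58) or the clone 14 FLAG or HA library (0.0600 and 0.0530). Hoxd8 lost its call without the clone 12 SCR library (0.547) or the clone 14 FLAG or HA library (0.0877 and 0.0916), and Hoxd9 without either SCR library or the clone 14 FLAG or HA library (0.0730 to 0.118). Tbx5 was not called (log2 fold change 0.08, SE 0.55, edgeR adjusted p = 0.965).

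The 3 siRNAs against cyclin D1 itself raised 3 of the 36 genes in the tagged clones and lowered 0, with 5.38% of all genes called, 2.68% higher and 2.71% lower. These libraries were set against the same SCR libraries as the tag siRNAs, so the comparisons are not independent. Pitx1 had 10.9, 13.6 and 17.3 CPM with Qiagen, Nature and Life siRNA in clone 14, against 4.82 CPM with SCR (log2 fold change 1.50, SE 0.30, edgeR adjusted p = 0.00703). Hoxc6 had 15.2, 18.3 and 15.6 CPM in clone 12, against 7.55 CPM with SCR (log2 fold change 1.11, SE 0.22, edgeR adjusted p = 0.00726). Hoxd8 was above SCR in all 6 libraries, at 17.3, 21.0 and 14.0 CPM in clone 14 and 16.0, 27.0 and 16.1 CPM in clone 12 (log2 fold change 0.67, SE 0.18, edgeR adjusted p = 0.0345). The libraries of a clone again share its 1 SCR library. Hoxd9, which was not called, was below SCR with Life siRNA in both clones, at 3.03 CPM in clone 14, against 4.10 CPM with SCR, and 1.81 CPM in clone 12, against 2.33 CPM with SCR. Pitx1 lost its call without the clone 14 SCR, Qiagen, Nature or Life library (edgeR adjusted p 0.324 to 0.973), where its log2 fold change was 2.85, 0.64, 0.50 and 1.64 in that order, and under DESeq2 (0.225). Hoxc6 lost its call without the clone 12 SCR, Qiagen, Nature or Life library (1 each), with a lowest log2 fold change of 0.73 without Nature. Hoxd8 lost its call without the clone 12 SCR library (0.673, log2 fold change 0.41), and without the clone 12 Nature or Life or the clone 14 Qiagen or Life library (0.0577 to 0.0710).

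**Figure D5:**
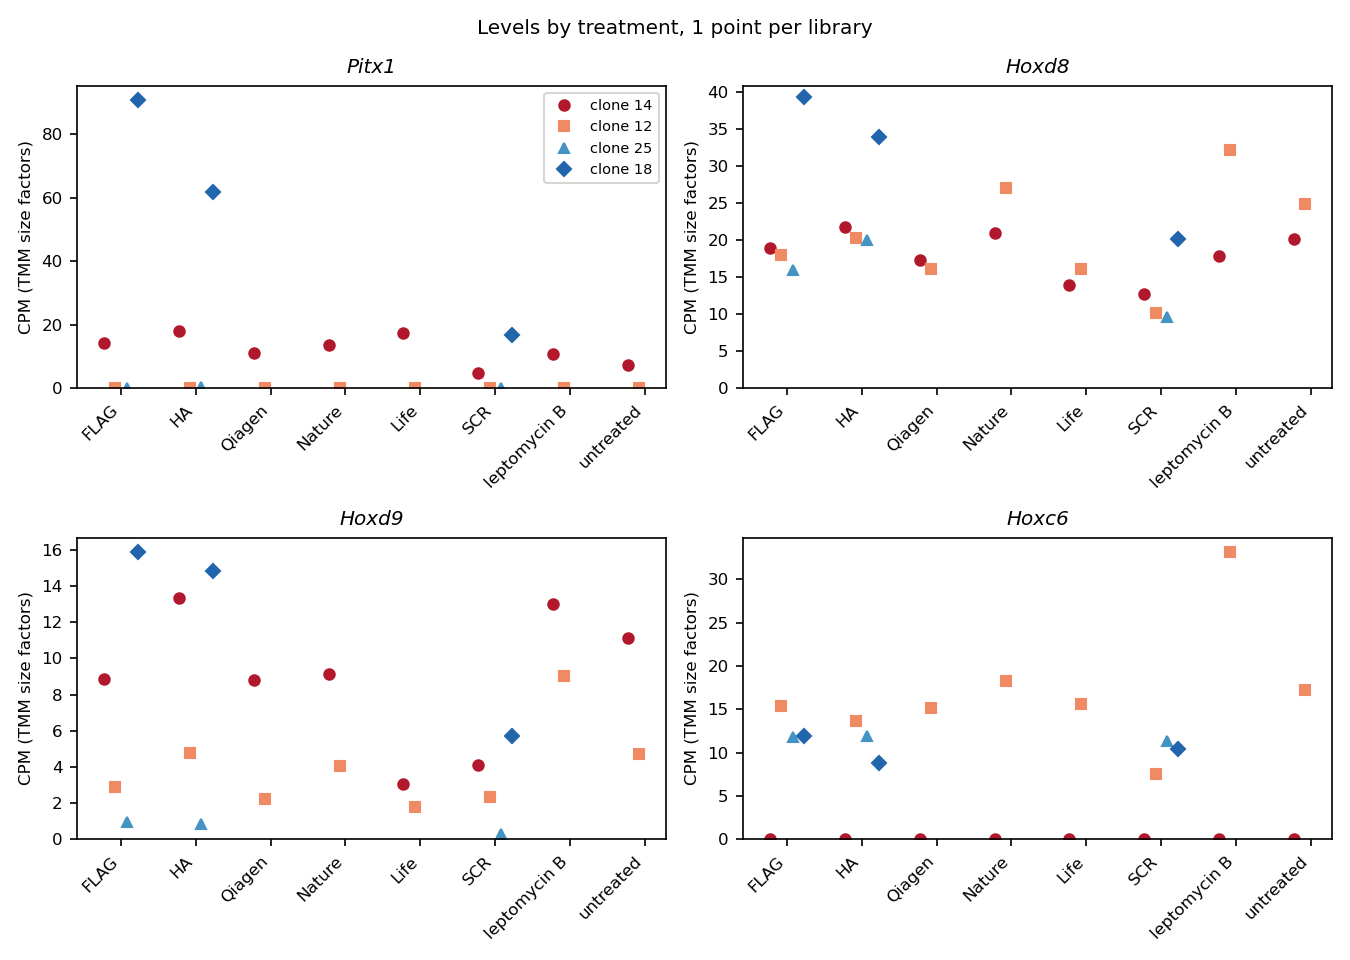
CPM (y axis) of Pitx1, Hoxd8, Hoxd9 and Hoxc6 by treatment (x axis) in clones 14, 12, 25 and 18, 1 point per library. The SCR library is the lowest of its clone for Hoxd8 in all 4 clones, and for Pitx1 in clones 14 and 18, while Pitx1 in clones 12 and 25 is at or near 0.

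In the untagged clones, whose cyclin D1 carries no FLAG or HA tag, the same siRNAs raised 3 of the 36 genes against SCR and lowered 0, with 2.68% of all genes called, 1.21% higher and 1.47% lower. Pitx1 had 90.7 and 61.7 CPM in clone 18 with FLAG and HA siRNA, against 16.6 CPM with SCR, and 0.0526 and 0.130 CPM in clone 25, against 0.0221 CPM with SCR (log2 fold change 2.17, SE 0.31, edgeR adjusted p = 0.000425). Hoxd9 had 0.947 and 0.848 CPM in clone 25, against 0.310 CPM with SCR, and 15.9 and 14.8 CPM in clone 18, against 5.69 CPM with SCR (log2 fold change 1.46, SE 0.28, edgeR adjusted p = 0.00504). Hoxd8 had 16.0 and 20.0 CPM in clone 25, against 9.52 CPM with SCR, and 39.3 and 33.9 CPM in clone 18, against 20.1 CPM with SCR (log2 fold change 0.89, SE 0.19, edgeR adjusted p = 0.0123). All 4 siRNA libraries were above the SCR library of their clone for Hoxd9 and Hoxd8, with 1 SCR library shared in each clone. For Pitx1 in clone 25 the values are 2 and 6 counts, against 1 count with SCR, too few to give a direction, so its call rests on clone 18.

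Pitx1 was not called there without the clone 18 SCR library (edgeR adjusted p = 1) or FLAG library (0.909, log2 fold change 1.33), nor under DESeq2 (0.0713), and Hoxd9 not without either SCR library (0.0586 and 0.518). Hoxd8 lost its call without the clone 25 SCR or HA library (0.224 and 0.0582) or the clone 18 SCR or FLAG library (0.408 and 0.0878). The difference of the tag siRNA response, tagged minus untagged, was called for 0 of the 36 genes by edgeR and by DESeq2, with 0.00662% of all genes called. It was −0.44 for Pitx1 (SE 0.41, adjusted p = 1). An unadjusted edgeR p under 0.05 was found for 3 genes (8.33%, against 2.67% of all genes), Hoxc6 (0.90, SE 0.28), Hoxb5 (−1.30, SE 0.54) and Hoxd3 (−1.13, SE 0.47), which were named after their values were seen.

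The SCR libraries themselves stood apart from untreated cells in some of the same genes. SCR minus untreated, in the tagged clones, lowered 4 of the 36 genes and raised 0, with 5.29% of all genes called, 1.68% higher and 3.61% lower. This comparison shares the SCR libraries with the siRNA comparisons above. Hoxd8 had 12.7 CPM in clone 14 and 10.1 CPM in clone 12 with SCR, against 20.1 and 24.9 CPM untreated (log2 fold change −0.98, SE 0.21, edgeR adjusted p = 0.0133). Hoxd9 had 4.10 and 2.33 CPM with SCR, against 11.1 and 4.73 CPM untreated (log2 fold change −1.22, SE 0.26, edgeR adjusted p = 0.0130). Hoxc6 in clone 12 had 7.55 CPM with SCR, against 17.2 CPM untreated (log2 fold change −1.22, SE 0.26, edgeR adjusted p = 0.0130). In the same clone, Hoxc10 had 0.693 CPM with SCR, against 2.88 CPM untreated (log2 fold change −1.88, SE 0.44, edgeR adjusted p = 0.0204). Pitx1 in clone 14 had 4.82 CPM with SCR, against 7.25 CPM untreated, and was not called (log2 fold change −0.68, SE 0.35, edgeR adjusted p = 0.231).

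The choice of control therefore set the direction for several genes. With untreated cells in place of SCR, the log2 fold change for tag siRNA in tagged clones became −0.17 for Hoxd9, −0.18 for Hoxd8 and −0.29 for Hoxc6, none of them called, and that for cyclin D1 siRNA became −0.30 for Hoxd8 and −0.11 for Hoxc6. Pitx1 stayed higher and called, at 1.04 for tag siRNA (edgeR adjusted p = 0.0154) and 0.82 for cyclin D1 siRNA (edgeR adjusted p = 0.0486). For cyclin D1 siRNA 23.7% of all genes were called against untreated cells, which had no siRNA. Both Pitx1 values rest on 1 untreated library, that of clone 14. The clone 12 SCR library had the highest total of the series and 14132 genes with counts, against 15201 to 15871 in the other clone 12 libraries. Without it, Hoxc6, Hoxd8 and Hoxc10 lost their calls for SCR minus untreated (edgeR adjusted p 0.841, 0.166 and 0.248), and likewise without the untreated clone 12 library (0.180, 0.0800 and 0.741, with Hoxc6 at −4.05) or the untreated clone 14 library (0.0776, 0.0671 and 0.0533). Hoxd9 lost its call without any 1 of the 4 libraries (0.0509 to 0.101).

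Leptomycin B raised 2 of the 36 genes against untreated cells and lowered 0, with 9.99% of all genes called, 4.29% higher and 5.7% lower. Hoxa7 had 14.4 CPM in clone 14 and 7.30 CPM in clone 12 with leptomycin B, against 6.96 and 4.40 CPM untreated (log2 fold change 0.91, SE 0.23, edgeR adjusted p = 0.0175). Hoxc6 had 33.2 CPM in clone 12 with leptomycin B, its highest level in the series, against 17.2 CPM untreated (log2 fold change 0.89, SE 0.26, edgeR adjusted p = 0.0344). Hoxa7 was not called without either untreated library (0.137 for clone 12, 0.0785 for clone 14) or the clone 14 leptomycin B library (0.188), and Hoxc6 not without either clone 12 library (0.383 and 0.798) or the untreated clone 14 library (0.0792). Pitx1 and Tbx5 were not called, with log2 fold changes of 0.48 (SE 0.34, edgeR adjusted p = 0.42) and 0.43 (SE 0.70, edgeR adjusted p = 0.769). With the libraries of this comparison alone, 11 genes were called, and 33.5% of all genes.

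The wider patterning lists had 0 to 3 genes called in each treatment comparison. Of the 34 tested limb bud and axis genes, 1 (2.94%) was called with tag siRNA in tagged clones, against 3.86% of all genes. It was Irx3, a factor of proximal and anterior limb (log2 fold change 1.24, edgeR adjusted p = 0.0108). For SCR minus untreated 1 (2.94%) was called, Bmp2 (1.12, edgeR adjusted p = 0.0368), against 5.29% of all genes. Of the 9 cofactors, Pbx3 alone was called with leptomycin B, and was lower (log2 fold change −0.55, edgeR adjusted p = 0.0251). Of all genes 9.99% were called with it, so 1 call among 9 genes is near that share. Of the 32 Polycomb and trithorax regulators 3 (9.38%) were called with tag siRNA in tagged clones, against 3.86% of all genes, 3 (9.38%) with cyclin D1 siRNA, against 5.38%, and 2 (6.25%) with tag siRNA in untagged clones, against 2.68%. Phf19, a Polycomb recruiting subunit, was lower in each (log2 fold changes −0.85, −1.14 and −0.56), and Pcgf2, a PRC1 subunit, was higher in each (0.68, 0.62 and 0.64). Leptomycin B raised Cbx8 (1.14) and Phf1 (0.83), 6.25% of the list, and of the 11 caudal or anterior factors 2 (18.2%) were called with it, both lower, against 9.99% of all genes.

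Some counts may be shared between neighbours, since the sources used here do not give the strand setting of the counting. In the GENCODE annotation Hoxd3 shared 68.6% and Hoxd4 45.1% of their exon bases with Gm28230 on the same strand, Hoxd11 23.9% with Gm28309, and Hoxa2 15.0% with Gm28308. Hoxa11 overlaps Hoxa11os, and Pitx1 overlaps Gm47071, on the opposite strand.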

How the data were processed

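Transcripts of MEF lines were sequenced from 28 stranded poly(A) libraries as single reads of 100 bases, per the labels' protocols. The table of raw gene counts is as the authors deposited it, and the submitters' processing notes name CASAVA 1.8.2, FastQC, TopHat2 2.0.13, Bowtie2 2.2.3, HTSeq 0.6.1p1 and build mm10. The sources used here do not give the annotation or strand setting. The 22 rows without a gene ID held at most 0.0137% of a library.

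The count test was edgeR 4.0.16 under R 4.3.3. Its filterByExpr step kept 15099 genes, 36 of the 42 described here. A robust quasi-likelihood model with TMM normalization held the 28 libraries as 15 groups (17 coefficients, 11 residual degrees of freedom) and the clone or matched mCherry pair as a block. The genes that did not pass the filter were Hoxb1, Hoxb13, Hoxc12, Hoxc13, Hoxd12 and Tbx4. The block is the clone itself, and same-clone libraries deviated together (lowest correlation 0.834 over 56 tagged pairs and 0.862 over 6 untagged pairs). P-values were adjusted over all genes (Benjamini-Hochberg, threshold 0.05), and an SE is the log2 fold change over the square root of F. Where 1 clone is near 0 counts, such an SE can be smaller than the counting error of the fold. CPM used TMM factors, and log2 CPM a prior count of 2. The biological coefficient of variation was 14.6%. The fits were tested on simulated data. Intervals and floors cover counting error only.

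Named for each comparison were the 8 called genes with the smallest p, with Pitx1 and Tbx5, and up to 4 genes per list. A few results are not reported here. The genes and lists were chosen with earlier results of these data known. Alternatives were relative log expression factors, no and a stricter filter, non-robust dispersion, no block, the libraries of a comparison alone, DESeq2 1.42.0, untreated cells as control, omission of libraries over 2% Rn45s, and omission of each library. Promoters and the microRNA came from RefSeq (GRCm38.p6).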

Additional observations from a re-analysis of the deposited data

Results flagged for a closer look

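With FLAG and HA siRNA minus SCR, Hoxa11 moved by a mean log2 difference of −0.11 in clone 25 and 0.40 in clone 18, both libraries of a clone going the same way. It had 7.47 and 7.83 CPM in clone 25, against 8.23 CPM with SCR, and 76.8 and 56.3 CPM in clone 18, against 49.8 CPM with SCR. The difference between the clones was not tested.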

How the results depend on the processing

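Of 53 calls named for single genes, 24 held under every alternative run, among them those for clone 14 minus clone 12 and clone 25 minus clone 18, and 29 were lost under at least 1. Without the replicate block (the clone), 2 of the 36 genes were called for tagged minus untagged clones and 0 for tag siRNA in tagged clones, cyclin D1 siRNA, tag siRNA in untagged clones, leptomycin B and SCR minus untreated. The fit without the block could not be made for the test of any difference among the clones or for clone 14 minus clone 12. The same held for clone 25 minus clone 18 and for the mCherry lines minus clone 18. With the libraries of a comparison alone, 3 were called for the mCherry lines, 0 for cyclin D1 siRNA, 11 for leptomycin B and 1 for SCR minus untreated. Without the 4 libraries over 2% Rn45s, 2 were called for tag siRNA and 1 for cyclin D1 siRNA in tagged clones. With untreated cells in place of SCR, cyclin D1 siRNA gave 5 calls, with 23.7% of all genes called. Leaving out 1 library at a time gave 0 to 5 calls for the mCherry lines, 0 to 5 for tag siRNA and 1 to 5 for cyclin D1 siRNA in tagged clones, 0 to 3 for tag siRNA in untagged clones, 0 to 2 for leptomycin B and 0 to 3 for SCR minus untreated. Counted at any read in any library, clone 14 had 36 of the 42 genes. The sign turned for Hoxc8 in tagged minus untagged clones without the block (0.48); with untreated cells as control, for tag siRNA in Hoxd9 (−0.17), Hoxd8 (−0.18) and Hoxc6 (−0.29), and for cyclin D1 siRNA in Hoxc6 (−0.11) and Hoxd8 (−0.30). It also turned for Hoxc6 under leptomycin B without the clone 12 untreated or leptomycin B library (−1.92 and −1.45; highest 0.93 with 1 library left out), and for Hoxc10 in SCR minus untreated without the clone 12 SCR or untreated library (2.70 and 0.94; lowest −2.04), where clone 14, with almost no counts, was left alone. Other causes were not tested. Each treatment has 1 library per clone, and genes near 0 carry the largest errors.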
